A study of Mus musculus with 36 samples.

Results

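Gastrocnemius RNA of mice that ran 4.2 km/day (HFD-50%) was compared with that of mice that ran 8.3 km/day without restriction (HFD-U), with 6 mice in each group. These 12 libraries were chosen by their treatment label alone, out of 36 libraries in 6 groups of 6 mice. All were C57BL/6 wild-type males that were 3 to 4 weeks old at the start and ate a high-fat diet for 12 weeks. HFD-50% mice had a running wheel whose brakes were released at lights off and applied once 50% of the unrestricted distance had been covered, whereas the wheel of HFD-U mice stayed free. A shorter distance and a braked wheel therefore came together and cannot be told apart. The labels give neither the hour at which tissue was taken nor the time since the last run, and each library holds whole muscle of 1 mouse. In such tissue, fewer cells of a type and less RNA per cell cannot be told apart.

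The gastrocnemius is a mixed calf muscle, made mostly of fast fibres with a small share of slow ones. Running changes how much fat and glucose a fibre burns, and fatty acids switch on genes of lipid handling through nuclear receptors of the PPAR family. Muscle also keeps a circadian clock, in which BMAL1 and CLOCK bind a DNA element called the E-box and switch on their own repressors, and feeding as well as activity can shift its phase. Glucocorticoid hormone and FOXO factors act on an overlapping set of genes in fasting, stress and muscle loss.

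Total counts per library ran from 14025701 to 17179350 in HFD-50% and from 14611063 to 17757846 in HFD-U, without a detectable difference between the groups (two-sided exact permutation test, p = 0.911). Muscle markers were abundant in every library, with Ckm between 9216 and 13700 CPM (counts scaled by library size and TMM factor) and Acta1 between 14493 and 31332 CPM. Mylpf, a fast myosin light chain that should be abundant, was counted at 3 to 42 reads per library and could not be used as a marker. Features linked to ribosomal RNA held 0.560 to 1.02% of counts in HFD-50% and 0.470 to 0.622% in HFD-U (exact permutation test, p = 0.0173, adjusted p = 0.0693 over 4 library measures). HFD-50% mouse 4 stood apart from the other libraries, with 63.3 on the first principal component against -30.3 to 13.7 elsewhere, and a mean correlation with its own group of 0.930 against 0.959 to 0.968 for the other HFD-50% mice. Several results that rest on it are given with and without it.

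Of 46893 features in the table, 11851 had a mean count of at least 25 and were tested. In edgeR's quasi-likelihood test, Angptl4 alone passed a Benjamini-Hochberg adjusted p of at most 0.05, which is 0.00844% of the genes tested. At an unadjusted p limit of 0.05, 839 genes (7.08%) were higher and 633 (5.34%) lower in HFD-50%. Together these were 1472 genes, where 5% of the genes tested, both directions counted, would be 593. Below, a gene is called higher or lower when it passed this unadjusted limit, which is weaker than a call after adjustment. At least 2-fold differences were found in 117 of the higher and 42 of the lower genes. The middle 90% of all genes had log2 fold changes, HFD-50% minus HFD-U, between -0.42 and 0.55, and the median was 0.02. In 58 genes (0.489%) every HFD-50% mouse was above every HFD-U mouse, and in 49 (0.413%) every one was below. Without HFD-50% mouse 4, 739 genes were higher and 599 lower, and of these 1338 genes 1024 were among the first 1472, all in the same direction. With the ribosomal RNA share of each library as a covariate, 350 genes were higher and 279 lower.

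Angptl4 (chromosome 17, 33993874 to 34000549, GRCm39) encodes a secreted inhibitor of lipoprotein lipase, the enzyme that releases fatty acids from circulating triglyceride. In HFD-50% its lowest, median and highest values were 12.1, 22.9 and 46.3 CPM, and in HFD-U they were 4.27, 5.28 and 6.10 CPM. Even the nearest mice of the groups, HFD-50% mouse 3 and HFD-U mouse 5, were at 12.1 and 6.10 CPM. Angptl4 rose 4.65-fold in HFD-50%, a log2 fold change of 2.22 with a standard error of 0.28 (edgeR, adjusted p = 0.0106), with 6 of 6 mice above all HFD-U mice. Leaving out 1 mouse at a time kept the log2 fold change between 1.93 and 2.35. The adjusted p moved to 0.0585, 0.0507 and 0.0576 without HFD-U mouse 1, 2 or 6, so the adjusted call was lost in edgeR without any 1 of these HFD-U mice, while the log2 fold change stayed at 2.17, 2.23 and 2.22. DESeq2 on all 12 mice gave Angptl4 an adjusted p of 4.25e-11. Without HFD-50% mouse 1, the highest, the log2 fold change was 1.93 and the adjusted p 0.00325.

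The other genes with the smallest p among those higher in HFD-50% had an adjusted p from edgeR of 0.0731 to 0.0797. Zfp36l1, an RNA-binding protein that speeds the decay of messages with AU-rich elements, had 26.9, 31.7 and 32.5 CPM in HFD-50% (lowest, median, highest) and 12.2, 16.0 and 23.6 CPM in HFD-U. HFD-50% mouse 3 held the lowest value and the other 5 were at 31.2 to 32.5 CPM (log2 fold change 0.91, standard error 0.15). Rnase13, of the RNase A family, had 3.15, 5.31 and 7.20 CPM against 0.652, 1.07 and 2.30 CPM, a log2 fold change of 1.93 at a low level. Sox18, a transcription factor of endothelial cells, had 10.6, 14.2 and 21.9 CPM against 4.67, 7.15 and 10.3 CPM, a log2 fold change of 1.09. In none of these genes did the groups overlap.

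Myog, the muscle differentiation factor myogenin, was at 2.72, 3.49 and 5.98 CPM in HFD-50% and at 1.40, 1.56 and 1.92 CPM in HFD-U, again without overlap. Pnpla3, a lipase of lipid droplets, had 4.63, 13.6 and 15.2 CPM against 1.13, 3.68 and 4.09 CPM, a log2 fold change of 1.88. Here HFD-50% mice 3 and 6, at 6.19 and 4.63 CPM, lay just above the HFD-U range, and the other 4 were at 12.7 CPM or more. Klf10, a Krüppel-like factor induced by TGF-beta, had 20.9, 43.2 and 58.1 CPM against 10.3, 13.6 and 23.0 CPM. It overlapped by 1 mouse, since HFD-50% mouse 3 was below HFD-U mouse 1 (log2 fold change 1.41). Glb1l2, Clec10a and Lzts2 completed the 10 genes with log2 fold changes of 0.93, 1.34 and 0.56, and all were free of overlap. Clec10a is a lectin of macrophages, and the 7 macrophage markers summed to 47.4 to 91.3 CPM in HFD-50% and to 36.9 to 81.6 CPM in HFD-U, with 0 of the 6 tested ones past the limit. The part of macrophages in the Clec10a value was not tested.

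**Figure D1:**
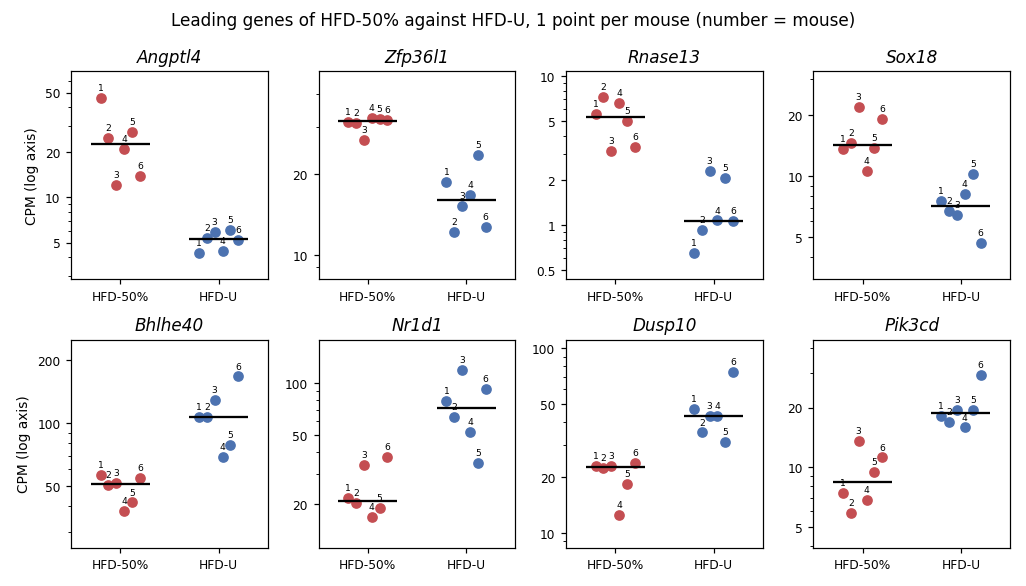
CPM of 8 leading genes on a log axis, with 1 point per mouse, the mouse number above it and a bar at the group median, for HFD-50% (red) and HFD-U (blue). The 6 HFD-50% values of Angptl4 lie between 12.1 and 46.3 CPM, all above the HFD-U values of 4.27 to 6.10 CPM, while Nr1d1 overlaps between HFD-50% mouse 6 and HFD-U mouse 5.

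Among lower genes, the repressors Bhlhe40 and Nr1d1 had the smallest p and are described with the clock below. Dusp10, a phosphatase that switches off the kinases p38 and JNK, had 12.5, 22.8 and 23.9 CPM in HFD-50% and 31.0, 43.1 and 74.1 CPM in HFD-U, without overlap (log2 fold change -1.15, standard error 0.21, adjusted p = 0.0731). Pik3cd, the delta catalytic subunit of phosphoinositide 3-kinase, had 5.88, 8.44 and 13.6 CPM against 15.9, 18.8 and 29.3 CPM. Neither gene had an HFD-50% mouse at the level of any HFD-U mouse. Slc41a3, a magnesium transporter, had 17.0, 38.3 and 46.4 CPM against 55.9, 72.3 and 85.2 CPM (log2 fold change -0.96). The lowest value was that of HFD-50% mouse 4, and without it the adjusted p of Slc41a3 went from 0.115 to 0.0743 with a log2 fold change of -0.81. Ppat, which catalyses the first committed step of purine synthesis, had a log2 fold change of -0.73, Sbk2, a muscle kinase, -1.28, Lingo3, a membrane protein with leucine-rich repeats, -1.10, and Tmem135, a membrane protein of peroxisomes and mitochondria, -0.54. An unnamed transcript on chromosome 12 (73084853 to 73088574, GRCm39) was at 15.3 to 23.1 CPM in HFD-50% and 24.0 to 42.3 CPM in HFD-U.

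Clock output genes had the most negative median of the 37 gene lists. Of 13 clock output and repressor genes, 9 (69.2%) were lower and 0 higher, beside 5.34% and 7.08% of all genes tested. Their median log2 fold change was -0.57 against 0.02 over all genes tested. In 4 of the 13 every HFD-50% mouse was below every HFD-U mouse, which held for 0.413% of all genes tested. The summed level of the list was 809 to 1077 CPM in HFD-50% and 1151 to 1541 CPM in HFD-U. The count was 10 without HFD-50% mouse 4, 8 with the slow fibre level as a covariate and 5 with the ribosomal RNA share as a covariate.

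The promoters of 3 of these genes are shown because they hold the E-box CACGTG, in capitals, within the 250 bases before the RefSeq start (GRCm38.p6, gene strand). Ciart lies at chr3:95882229-95882478 on the minus strand, Bhlhe41 at chr6:145865421-145865670 on the minus strand, and Tef, at the first of its listed starts, at chr15:81802423-81802672 on the plus strand.
Ciart: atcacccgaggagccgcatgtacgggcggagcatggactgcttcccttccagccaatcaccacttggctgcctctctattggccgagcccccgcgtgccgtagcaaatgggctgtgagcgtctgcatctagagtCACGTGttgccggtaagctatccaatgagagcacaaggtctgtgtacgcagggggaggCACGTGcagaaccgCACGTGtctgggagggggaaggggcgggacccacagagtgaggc
Bhlhe41: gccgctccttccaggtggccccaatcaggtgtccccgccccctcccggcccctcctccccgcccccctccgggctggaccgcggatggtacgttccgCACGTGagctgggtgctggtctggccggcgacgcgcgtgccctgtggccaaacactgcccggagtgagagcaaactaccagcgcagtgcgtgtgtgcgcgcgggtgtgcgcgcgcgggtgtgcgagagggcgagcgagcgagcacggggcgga
Tef: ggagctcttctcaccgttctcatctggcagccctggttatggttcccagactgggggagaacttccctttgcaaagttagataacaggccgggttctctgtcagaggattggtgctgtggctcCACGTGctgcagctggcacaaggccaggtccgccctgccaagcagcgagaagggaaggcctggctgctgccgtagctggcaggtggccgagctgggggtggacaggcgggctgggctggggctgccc
Counted from the start, the motif begins at -116, -58 and -44 in Ciart, at -153 in Bhlhe41 and at -127 in Tef. Of the 11 list members found among the RefSeq promoters, 4 held CACGTG, the fourth being Per1, which did not pass the limit. Among all tested genes matched by symbol (9169), 10.2% held it in at least 1 listed promoter, and 6.02% of all 32851 promoter windows did. CACGTG reads the same on both strands, so each match counts once. A match is a description of the sequence and does not show that it is used.

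Ciart, a repressor of the clock, had 2.03, 5.19 and 13.1 CPM (lowest, median, highest) in HFD-50% and 12.6, 14.7 and 26.9 CPM in HFD-U, 2.96-fold lower (log2 fold change -1.57, standard error 0.38, adjusted p = 0.199). HFD-50% mouse 3 lay inside the HFD-U range, and the other 5 HFD-50% mice were at or under 7.37 CPM. Bhlhe41, which encodes the E-box repressor DEC2, had 10.8, 40.6 and 44.6 CPM against 56.7, 79.9 and 118 CPM, without overlap. Its partner Bhlhe40 (DEC1) had 37.9, 51.2 and 56.4 CPM against 68.6, 107 and 168 CPM, again without overlap (log2 fold change -1.17, standard error 0.19, adjusted p = 0.0731 from edgeR). Both DEC genes thus differed in the same direction in all 6 mice.

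Nr1d1, which encodes REV-ERB alpha, the repressor of Bmal1, had 16.8, 20.9 and 37.5 CPM in HFD-50% and 34.6, 71.4 and 119 CPM in HFD-U, 2.96-fold lower. Only HFD-50% mouse 6 reached the HFD-U range, whose lowest value was that of mouse 5 (log2 fold change -1.56, standard error 0.28, adjusted p = 0.0731). Dbp and Tef, transcription factors of the PAR bZIP family, are named here after their values were seen. Dbp had 9.10, 45.3 and 88.1 CPM against 92.9, 119 and 129 CPM, and Tef 230, 295 and 342 CPM against 345, 368 and 430 CPM. The HFD-50% mice were far more spread in Dbp than the HFD-U mice, and in neither gene did the groups overlap.

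Of 7 tested genes of the positive limb and its phase group, 3 (42.9%) were higher and 0 lower, beside 7.08% and 5.34% of all genes tested. Arntl, which encodes BMAL1, had 5.65, 14.9 and 37.6 CPM in HFD-50% and 5.10, 6.99 and 9.76 CPM in HFD-U (log2 fold change 1.33, adjusted p = 0.262). Without HFD-50% mouse 4 the log2 fold change of Arntl was 0.96. Mice 1, 2 and 4 of HFD-50% were at 26.6, 21.3 and 37.6 CPM, while mice 3, 5 and 6 were at 5.65 to 8.43 CPM, inside the HFD-U range. Nfil3, a repressor of PAR bZIP targets, had 33.5, 58.7 and 106 CPM against 16.7, 29.9 and 35.8 CPM. The mice with high Arntl also had the lowest Dbp, at 17.9, 32.2 and 9.10 CPM, while Bhlhe40 was below the HFD-U range in all 6.

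**Figure D2:**
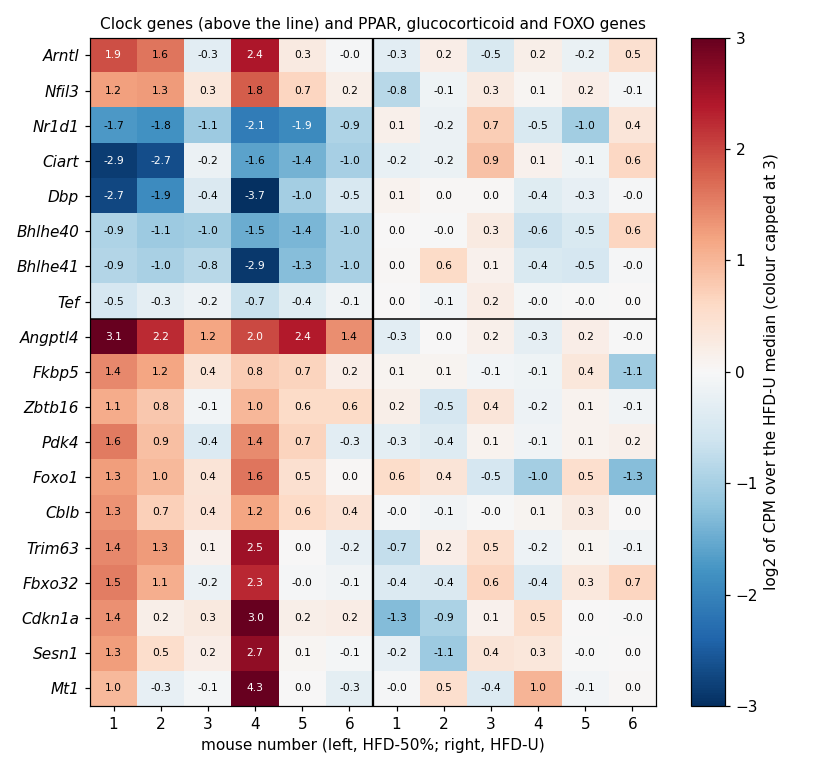
Each cell gives the log2 of a mouse's CPM over the median of the 6 HFD-U mice, for 8 clock genes (above the line) and 11 PPAR, glucocorticoid and FOXO genes (below it), with HFD-50% mice on the left and HFD-U mice on the right. Bhlhe40 and Nr1d1 are negative in every HFD-50% mouse, Angptl4 is positive in every one, and Trim63, Cdkn1a and Mt1 are highest in mouse 4.

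In a list of PPAR and fatty acid oxidation genes, the members past the limit ran in 1 direction. Of 46 members, 10 (21.7%) were higher and 0 lower, beside 7.08% and 5.34% of all genes tested. A positive log2 fold change was found in 39, and the median was 0.22 against 0.02 over all genes tested. The count of higher members stayed at 10 without HFD-50% mouse 4 and was 6 with the slow fibre level as a covariate. A separate list of 25 regulators (PPAR, PGC-1 and ERR genes) had 0 higher, 2 (8%) lower and a median of -0.09. Plin4, a coat protein of lipid droplets, had 729, 794 and 1264 CPM in HFD-50% and 452, 560 and 629 CPM in HFD-U, without overlap (log2 fold change 0.67, standard error 0.15, adjusted p = 0.176). The highest value was that of mouse 4, and without it the log2 fold change of Plin4 was 0.54 with an adjusted p of 0.107.

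Ucp3, an uncoupling protein of muscle mitochondria, had 332, 485 and 578 CPM against 271, 350 and 366 CPM, with 5 of 6 HFD-50% mice above the HFD-U range. Pdk4, the kinase that shuts off pyruvate dehydrogenase, had 879, 2028 and 3468 CPM against 903, 1175 and 1312 CPM. Its HFD-50% mice split in level, with mice 3 and 6 at or under the HFD-U median and the other 4 above every HFD-U mouse (log2 fold change 0.87, adjusted p = 0.286). Pdp1, the phosphatase that turns the same enzyme on, went the other way, with 36.6, 62.7 and 81.3 CPM against 83.0, 102 and 137 CPM and no overlap. Adipocytes also express Angptl4 and Plin4, and the 6 adipocyte markers summed to 3.13 to 39.2 CPM in HFD-50% and to 1.57 to 15.02 CPM in HFD-U, with 0 of 3 tested past the limit. The log2 fold changes of these 3 markers were all positive, with a median of 1.19, and their part in the values of Angptl4 and Plin4 was not tested.

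Among 32 tested genes induced by glucocorticoids, 13 (40.6%) were higher and 2 (6.25%) lower, beside 7.08% and 5.34% of all genes tested. Their median log2 fold change was 0.28. The counts were 8 and 4 without HFD-50% mouse 4, and 6 and 4 with the ribosomal RNA share as a covariate. The list shares Angptl4 and Pdk4 with the PPAR list and Foxo1 and Klf15 with the FOXO list. Fkbp5, a co-chaperone of the glucocorticoid receptor, had 132, 188 and 311 CPM in HFD-50% and 54.7, 115 and 146 CPM in HFD-U, with 5 of 6 mice above the HFD-U range (log2 fold change 0.90, standard error 0.24, adjusted p = 0.231). Zbtb16, a zinc finger factor, had 97.8, 168 and 226 CPM against 73.0, 104 and 133 CPM. Both genes kept their size without mouse 4, at log2 fold changes of 0.92 for Fkbp5 and 0.65 for Zbtb16. Cdkn1a, the cell cycle inhibitor p21, had 14.5, 15.4 and 102 CPM against 5.22, 12.8 and 18.6 CPM, and its log2 fold change went from 1.49 to 0.68 without mouse 4.

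The metallothioneins Mt1 and Mt2, which bind zinc and answer to glucocorticoids, rest on that 1 mouse. Mt1 was at 666 CPM in HFD-50% mouse 4 and at 26.9 to 64.6 CPM in the other 5, against 24.7 to 66.4 CPM in HFD-U. Its log2 fold change of 1.86 turned to -0.09 without mouse 4, and that of Mt2 from 2.01 to -0.19. Over the remaining mice neither gene passed the unadjusted limit.

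FOXO targets and atrophy genes numbered 32, of which 9 (28.1%) were higher and 1 (3.12%) lower, beside 7.08% and 5.34% of all genes tested. Their median log2 fold change was 0.14. Without mouse 4, 5 were higher and 1 lower, and with the ribosomal RNA share as a covariate 4 were higher and 0 lower. With the replicate block 4 were higher and 6 lower, and with the slow fibre level as a covariate 11 were higher and 1 lower. Cblb, a ubiquitin ligase that targets the insulin receptor substrate, had 20.5, 24.2 and 38.9 CPM in HFD-50% and 14.1, 15.3 and 18.5 CPM in HFD-U, without overlap (log2 fold change 0.79, standard error 0.16, adjusted p = 0.111). Gadd45a, a stress gene linked to muscle loss, had 13.1, 16.5 and 23.9 CPM against 9.37, 11.1 and 12.3 CPM, also without overlap. Without mouse 4 the log2 fold changes were 0.71 for Cblb and 0.51 for Gadd45a.

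The muscle ubiquitin ligases were more uneven. Trim63 (MuRF1) had 314, 654 and 2182 CPM in HFD-50% and 227, 373 and 532 CPM in HFD-U (log2 fold change 1.20, adjusted p = 0.286), and mice 1, 2 and 4 were above every HFD-U mouse. Fbxo32 (atrogin-1), named after its values were seen, had 379, 664 and 2038 CPM against 315, 427 and 672 CPM, with the same 3 mice above the HFD-U range. Without mouse 4 the log2 fold changes were 0.67 for Trim63, still past the unadjusted limit, and 0.50 for Fbxo32, which no longer passed it. Foxo1 itself had 47.0, 76.6 and 139 CPM against 18.7, 45.6 and 67.2 CPM (log2 fold change 0.94, adjusted p = 0.296). Its log2 fold change was 0.74 without mouse 4. Of 35 proteasome subunits, 0 were higher and 0 lower at an unadjusted p of at most 0.05, in edgeR as in DESeq2.

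**Figure D3:**
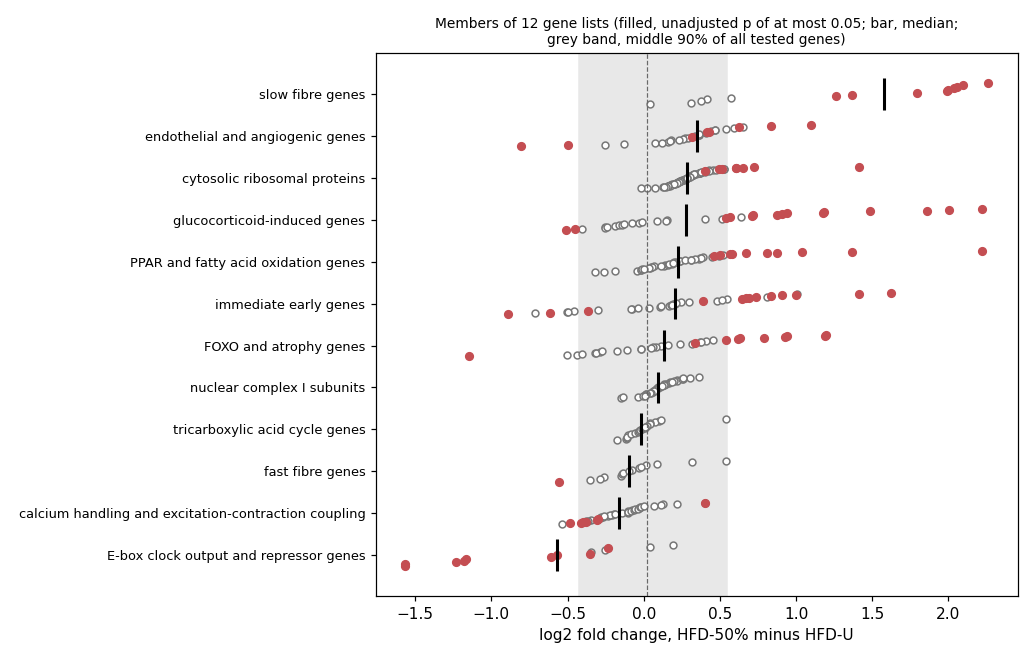
Log2 fold change, HFD-50% minus HFD-U, of each tested member of 12 gene lists, with filled points for an unadjusted p of at most 0.05, a bar at the list median and a grey band over the middle 90% of all genes (-0.42 to 0.55). Slow fibre genes lie farthest to the right (median 1.58) and clock output genes farthest to the left (median -0.57), while complex I and tricarboxylic acid cycle genes stay inside the band.

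Genes of slow fibres had the largest median difference of the 37 lists, with a wide spread between mice. All 14 had a positive log2 fold change, and the median was 1.58 against 0.02 over all genes tested. In this list 9 (64.3%) were higher and 0 lower, beside 7.08% and 5.34% of all genes tested. Myh7, the slow myosin heavy chain, had 79.0, 262 and 752 CPM in HFD-50% and 14.8, 80.2 and 185 CPM in HFD-U (log2 fold change 1.99, standard error 0.54, adjusted p = 0.239 from edgeR). HFD-50% mice 2, 3, 5 and 6 were above every HFD-U mouse, mouse 4 was at 175 CPM, within the HFD-U range, and mouse 1 was just under the HFD-U median. Myh7 did not pass the unadjusted limit in 1 fit over the 5 high-fat groups. Myh7b, a related myosin gene, had 2.77, 15.1 and 37.8 CPM against 0.621, 3.93 and 6.53 CPM. Atp2a2, the slow calcium pump SERCA2, had 137, 272 and 621 CPM against 53.4, 108 and 244 CPM, and Tpm3, the slow tropomyosin, 62.7, 278 and 607 CPM against 23.6, 90.1 and 207 CPM.

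On a scale per length of transcript, Myh7 made up 0.122 to 1.30% of the adult myosin heavy chain signal in HFD-50% and 0.0205 to 0.380% in HFD-U. The fast 2B chain Myh4 made up 72.3 to 92.9% and 73.9 to 97.3%, so slow myosin was a small part of this RNA signal in both groups. Of 15 fast fibre genes, 0 were higher and 1 (6.67%) lower, beside 7.08% and 5.34% of all genes tested. Casq1, the calcium store of fast fibres and the lower one, had 592, 1803 and 2001 CPM in HFD-50% and 1834, 2283 and 2932 CPM in HFD-U, with the lowest value in HFD-50% mouse 4. Without that mouse, 9 slow fibre genes were again higher. Whether the gastrocnemius of some mice held more slow fibre was not tested.

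**Figure D4:**
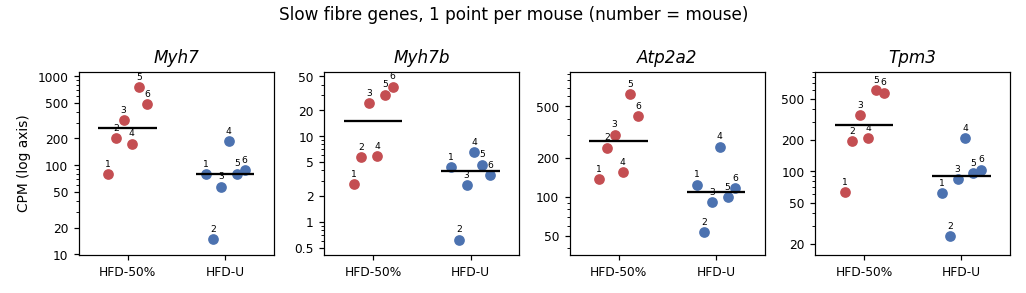
CPM of 4 slow fibre genes on a log axis, with 1 numbered point per mouse and a bar at the group median. HFD-50% mice 5 and 6 are the highest for each gene and HFD-U mouse 2 is the lowest, and the groups overlap in all 4 genes.

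Endothelial and angiogenic genes had 6 of 30 tested members (20%) higher and 2 (6.67%) lower, beside 7.08% and 5.34% of all genes tested. Their median log2 fold change was 0.35, with 26 positive values. Apart from Sox18, Eng (endoglin, a TGF-beta co-receptor) had 47.8, 49.7 and 68.2 CPM in HFD-50% and 25.0, 34.5 and 48.6 CPM in HFD-U, with 5 of 6 mice above the HFD-U range. Hey1, a target of Notch signalling, had 4.37, 6.14 and 9.22 CPM against 2.85, 3.50 and 5.83 CPM, and did not pass the limit with the slow fibre level as a covariate. Angpt1, a ligand that stabilizes vessels, was in contrast lower, with 1.83, 7.04 and 7.97 CPM against 8.19, 10.1 and 17.3 CPM and no overlap. Its log2 fold change went from -0.80 to -0.61 without mouse 4. Without mouse 4, 10 members were higher and 1 lower, and with the slow fibre level as a covariate 2 were higher and 2 lower. The 6 endothelial marker genes summed to 198 to 389 CPM in HFD-50% and 160 to 348 CPM in HFD-U, with 1 of 6 higher, and their part in the result was not tested. Eln, the elastin of vessel walls, had 18.3, 25.5 and 31.3 CPM against 10.3, 12.1 and 21.1 CPM (log2 fold change 0.90, adjusted p = 0.0846 from edgeR), while 0 of 20 collagens were higher and 1 lower.

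Immediate early genes, which answer within minutes to contraction or hormones, had 10 of 37 tested members (27.0%) higher and 3 lower, with a median log2 fold change of 0.20. The counts were 7 and 5 without mouse 4, and 5 and 5 with the ribosomal RNA share as a covariate. Pim1, a kinase induced by cytokines, had 12.1, 16.8 and 30.03 CPM in HFD-50% and 6.999, 9.51 and 12.7 CPM in HFD-U. Arid5a, an RNA-binding protein, had 4.46, 5.99 and 24.4 CPM against 1.68, 3.26 and 3.98 CPM, without overlap, and its log2 fold change went from 1.62 to 1.08 without mouse 4. MAPK feedback genes, which include Dusp10, had 1 of 20 (5%) higher and 3 (15%) lower. MAPK kinases had 4 of 41 (9.76%) higher and 3 (7.32%) lower, beside 7.08% and 5.34% of all genes tested. In each of these 2 lists the counts ran in both directions.

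Genes of lipid synthesis and cholesterol differed in both directions, with 4 of 37 tested (10.8%) higher, 5 (13.5%) lower and a median of 0.02. Over all genes tested 7.08% were higher and 5.34% lower. Srebf1, the factor that drives fatty acid synthesis, had 34.7, 40.7 and 50.6 CPM in HFD-50% and 52.0, 57.8 and 70.8 CPM in HFD-U, without overlap (log2 fold change -0.50, standard error 0.12, adjusted p = 0.199). In amino acid and one-carbon metabolism, 7 of 45 tested (15.6%) were higher and 5 (11.1%) lower. These counts were 3 and 7 without mouse 4, and 2 and 2 with the ribosomal RNA share as a covariate. Azin1, which spares the polyamine enzyme ornithine decarboxylase, had 19.6, 24.0 and 31.6 CPM against 30.6, 38.3 and 65.2 CPM, and Sms, spermine synthase, 90.9, 104 and 135 CPM against 112, 158 and 217 CPM. Both polyamine genes were lower in HFD-50%, with log2 fold changes of -0.80 for Azin1 and -0.53 for Sms. With the slow fibre level as a covariate these were -0.47 and -0.17, and Sms no longer passed the limit.

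Of 40 calcium handling genes, 6 (15%) were lower and 1 (2.5%) higher, beside 5.34% and 7.08% of all genes tested. The median was -0.16, and the counts without mouse 4 were 2 lower and 1 higher. With the replicate block 13 were lower and 1 higher. With the slow fibre level as a covariate 1 was lower and 4 higher, and with the ribosomal RNA share 0 and 0. Calm2, a calmodulin gene, had 64.6, 95.2 and 104 CPM in HFD-50% and 94.4, 116 and 136 CPM in HFD-U. The small heat shock protein Hspb8 had 223, 287 and 328 CPM against 319, 373 and 620 CPM (log2 fold change -0.54, adjusted p = 0.256). It did not pass the limit with the slow fibre level or the ribosomal RNA share as a covariate. Of 33 heat shock genes, 3 (9.09%) were lower and 0 higher, beside 5.34% and 7.08% of all genes tested.

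The nuclear genes tested of mitochondrial respiration did not pass the limit. Of 36 nuclear genes of complex I, 39 of complexes III to V and 20 of the tricarboxylic acid cycle, 0 were higher and 0 lower at an unadjusted p of at most 0.05 in edgeR, and 0 in DESeq2. Their median log2 fold changes were 0.10, 0.13 and -0.02. With the slow fibre level as a covariate, 11 genes of complex I and 11 of complexes III to V were lower. Cytosolic ribosomal proteins had 8 of 75 (10.7%) higher, beside 7.08% of all genes tested, and 0 lower. They had 74 positive values and a median of 0.29. The count of higher genes depended on the fit and on single mice. It was 4 without HFD-50% mouse 4 or 6, 5 without HFD-U mouse 1, 14 without HFD-U mouse 4, and 23 and 22 without HFD-50% mouse 1 or 2. It was 14 in 1 fit over the 5 high-fat groups, 27 with the replicate block, 1 with the slow fibre level as a covariate and 0 with the ribosomal RNA share. Rpl21 had 30.9, 66.5 and 252 CPM against 29.9, 35.5 and 43.7 CPM, and the highest value was again that of HFD-50% mouse 4. Its log2 fold change went from 1.41 to 0.84 without that mouse. Rps27a had 49.9, 83.9 and 162 CPM against 42.5, 55.6 and 67.5 CPM.

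A set of 12 genes was also measured by RT-qPCR, chosen on these same mice, so that their RNA-seq values are no independent evidence. In HFD-50% against HFD-U, 9 of the 12 were higher, beside 7.08% of all genes tested. Aldh1l1, Car4 and Lars2 did not pass the limit, with log2 fold changes of 0.26, 0.59 and 0.46. Phyhd1, a dioxygenase, had 33.0, 51.7 and 55.1 CPM in HFD-50% and 26.6, 28.3 and 45.5 CPM in HFD-U. Xdh, xanthine dehydrogenase of purine breakdown, had 75.0, 101 and 137 CPM against 39.0, 62.9 and 98.7 CPM. Aldh9a1, an aldehyde dehydrogenase, had 20.1, 37.6 and 68.5 CPM against 18.9, 23.8 and 39.0 CPM. In all of these the groups overlapped. With the slow fibre level as a covariate Xdh went from a log2 fold change of 0.73 to 0.24, Aldh9a1 from 0.65 to 0.15 and Phyhd1 from 0.59 to 0.28, and none of these 3 passed the limit. Fibin (log2 fold change 1.03), Pik3r1 (0.72) and Sesn1 (1.18) were also higher. Without mouse 4, Fibin had a log2 fold change of 0.66 and still passed the limit. Sesn1, a stress-induced regulator of mTORC1, did not pass the limit without mouse 4, at a log2 fold change of 0.52.

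Levels in the remaining groups were set side by side as CPM scaled over all 36 libraries, without a test. For Angptl4, Plin4 and Bhlhe40 the median of HFD-U was nearer to that of the sedentary high-fat group, HFD-C, than to that of any group with restricted running. Some other leading genes did not share this order. The median of Sbk2 was 216 CPM in HFD-U, 134 CPM in HFD-C and 164 CPM in HFD-25%. For Myog these medians were 1.56, 3.28 and 2.77 CPM. Median Angptl4 was 5.24 CPM in both HFD-C and HFD-U, and with HFD-25%, HFD-50% and HFD-75% it was 10.5, 22.8 and 14.4 CPM. For Bhlhe40 the median was 107 CPM in HFD-U and 93.5 CPM in HFD-C, and the same 3 groups with a limited distance had 58.9, 51.3 and 51.9 CPM, with ranges that overlapped among themselves. The median of Plin4 was 555 CPM in HFD-U and 506 CPM in HFD-C, against 743, 798 and 789 CPM in those groups. In sedentary mice on the normal-fat diet (NFD-C) it was 659 CPM for Plin4 and 9.17 CPM for Angptl4. Myh7 varied widely within other groups, from 0.310 to 525 CPM in HFD-C and from 0.837 to 511 CPM in HFD-25%.

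HFD-75% is the nearest distance to HFD-U and was fitted in the same way, although this comparison shares the HFD-U mice. For Angptl4 the log2 fold change, HFD-75% minus HFD-U, was 1.52 (adjusted p = 0.0644 from edgeR), beside 2.22 for HFD-50% minus HFD-U. For Bhlhe40 it was -0.97 beside -1.17, for Nr1d1 -1.51 beside -1.56, and for Ciart -1.90 beside -1.57. Between HFD-50% and HFD-75% themselves, Angptl4 differed by 0.70 and Zfp36l1 by 0.35 on the log2 scale, both higher in HFD-50%. Both were past the unadjusted limit, neither past adjustment (adjusted p = 0.838 for both, edgeR). For Myh7 the log2 fold change was 0.68 for HFD-75% minus HFD-U, not past the unadjusted limit. For HFD-50% minus HFD-75% it was 1.31, past the unadjusted limit but not past adjustment (adjusted p = 0.838).

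**Figure D5:**
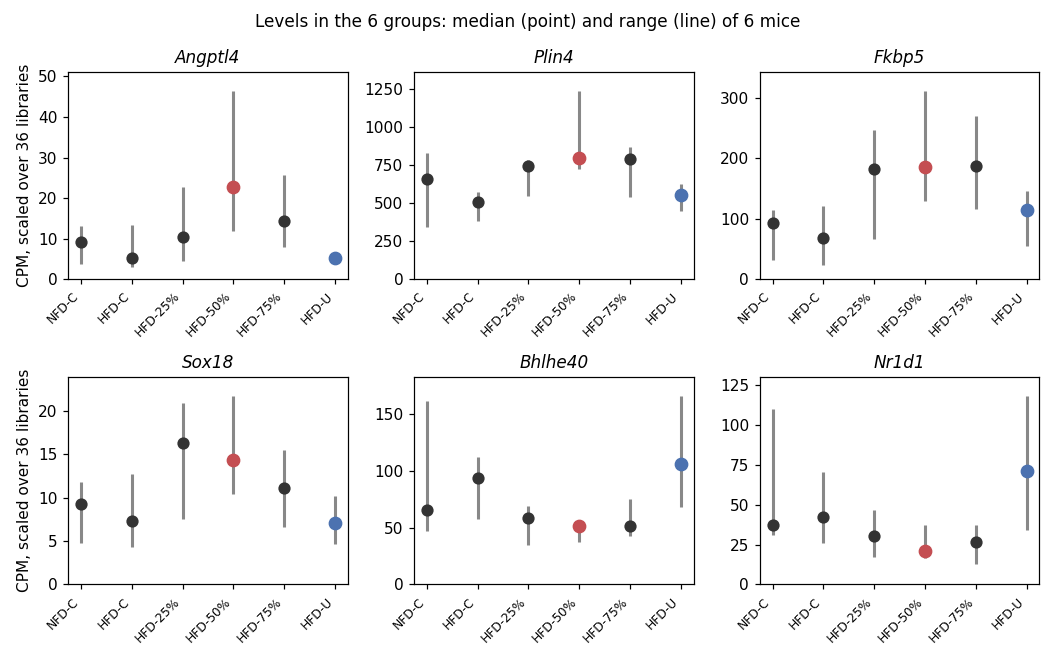
Median (point) and range (line) of CPM over 6 mice for 6 genes in the 6 groups, with HFD-50% in red and HFD-U in blue. Angptl4 has its highest median in HFD-50% (22.8 CPM), and Bhlhe40 and Nr1d1 have theirs in HFD-U (107 and 71.1 CPM).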

How the data were processed

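Gastrocnemius total RNA was sequenced in 36 mice, and the 12 HFD-50% and HFD-U libraries were compared. The deposited table holds raw counts per gene, made by the authors with HISAT2 2.0.5, StringTie 1.3.3b and featureCounts 1.5.0-p3 (per the submitters' processing notes, which also name DESeq2 1.20.0 and edgeR 3.22.5). The notes give mm10, whereas the coordinates in the table are those of GRCm39. Whether counting used strand is not given in the sources used here, so reads of overlapping genes may be mixed.

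Counts were tested with edgeR 4.0.16 (R 4.3.3, TMM scaling, quasi-likelihood F-test, a minimum mean of 25 counts in these 12 libraries, Benjamini-Hochberg adjustment). Total counts of 14025701 to 17757846 per library leave genes near the minimum with wide errors. Library measures were compared with two-sided exact permutation tests (smallest p 0.00216). No 2 libraries of a group agreed within sampling noise (chi-square per degree of freedom 19.5 to 142). Genes named were those past adjustment, the 10 smallest p in each direction, the 4 smallest p of each list and the 12 RT-qPCR genes. Alternatives were DESeq2 1.42.0, other scalings and minimum counts, covariates, a replicate block, 1 fit over the 5 high-fat groups and leaving out each mouse. The code was tested on simulated counts. The comparison, the gene lists and the members named were chosen with earlier results of these data known. Lists were described by counts and medians only, and some genes the rule names are not reported here.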

Additional observations from a re-analysis of the deposited data

Results flagged for a closer look

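Genes whose results are named in the report were searched for outlying mice, as were library measures such as total counts and the ribosomal RNA share. In the 6 values of each group, the lowest and highest were compared with their nearest neighbour. A value was flagged when that distance, as a share of the group's range, passed Dixon's 95% limit. Of 144 such groups of values, 21 held a flagged value, where chance gives about 1 in 20, or 7.2. HFD-50% mouse 4 accounted for 11 of the 21.

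In HFD-50% mouse 4 the high values were 1264 CPM for Plin4, 102 for Cdkn1a, 203 for Sesn1, 24.4 for Arid5a, 252 for Rpl21, 74.2 for Fibin, 666 for Mt1 and 358 for Mt2. Its low values were 17.0 CPM for Slc41a3, 10.8 for Bhlhe41 and 1.83 for Angpt1. This mouse also had 13 CPM of summed neutrophil markers, against 0 to 2.06 in the other HFD-50% mice and 0 to 0.283 in HFD-U, while Ly6g was at 0 in all 12 libraries. The part of these measures in the 11 values was not tested. HFD-50% mouse 3 had the lowest Zfp36l1 of its group, at 26.9 CPM.

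Among HFD-U mice, mouse 6 had the highest Dusp10 (74.1 CPM) and Pik3cd (29.3 CPM), and mouse 2 the highest Hspb8 (620 CPM). Mouse 3 stood out for Tef at 430 CPM, Hey1 at 5.83 CPM and Fibin at 31.6 CPM. Mouse 4 of HFD-U stood out for Atp2a2 at 244 CPM, Aldh9a1 at 39.0 CPM and Phyhd1 at 45.5 CPM, and it also had the highest Myh7 of its group.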

How the results depend on the processing

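The count of genes at an adjusted p of at most 0.05 depended most on the tool and the fit. It was 1 in edgeR and 102 in DESeq2 (145 without HFD-50% mouse 4), 25 with no minimum count, 28 in 1 fit over the 5 high-fat groups and 26 with the replicate block, and it ran from 0 to 4 when 1 mouse was left out. It was 0 without HFD-U mouse 1, 2 or 6, where 1096, 1009 and 1300 genes passed the unadjusted limit of 0.05, 4 without HFD-U mouse 4 or 5, and 2 without HFD-50% mouse 1 or 6. Genes past the unadjusted limit numbered 2844 with no minimum count (1605 higher, 1239 lower), which tests more genes, and 629 with the ribosomal RNA share as a covariate (350 higher, 279 lower). Leaving out 1 mouse gave 1009 to 2070 genes, 604 to 1108 higher and 405 to 962 lower, with the fewest lower genes without HFD-U mouse 2 and the most without HFD-50% mouse 1. The cause was not tested for any of these.

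Angptl4 kept its direction in every alternative, with log2 fold changes of 1.93 to 2.35 when 1 mouse was left out, and 2.17, 2.23 and 2.22 without HFD-U mouse 1, 2 or 6, where it missed the adjusted limit. Same-numbered mice of both groups had correlated deviations over 0.1 in 2 of 6 pairs, and 2 of 6 HFD-50% mice correlated best with their own number, so the numbers were not taken as pairs. With the replicate block 1088 genes were lower and 1036 higher, which made 48.8% of the called genes higher against 57.0% without it, and Angptl4 had a log2 fold change of 2.09. Mt1 reversed to -0.087 and Mt2 to -0.19 without HFD-50% mouse 4 (-0.085 and -0.18 in DESeq2), against up to 2.08 and 2.43 without another mouse, and to -0.53 and -0.63 with the ribosomal RNA share as a covariate. With the slow fibre level as a covariate, chosen after seeing the data, Aldh1l1 reversed to -0.25 and Car4 to -0.33. DESeq2 without HFD-50% mouse 4 and the fit without the mice numbered 1 were also chosen after seeing the data. Of 63 further named genes that passed the unadjusted limit, 19 no longer passed it with the ribosomal RNA share as a covariate, 11 with the slow fibre level, 5 with the block and 0 with other size factors or library size alone. At these depths genes of a few CPM, such as Rnase13, have the least precise levels.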
